A study of Homo sapiens with 5 samples.

Results

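Transcript levels of B3GALT5-knockout (B3GALT5-KO) H9 cells grown in 2iLAF medium were set against those of the same knockout cells grown in basal medium. Every gene symbol at 1 TPM or more in either B3GALT5-KO library was taken, which left 15172 of the 26506 symbols in the table. TPM is a transcript level corrected for transcript length and scaled so that every library has the same total. The change with medium is given as a log2 ratio, log2((2iLAF TPM + 1)/(basal TPM + 1)), and the size rule called a gene higher in 2iLAF where this was 1 or more and lower where it was -1 or less, a 2-fold difference after adding 1 TPM to both values.

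H9 is an established human embryonic stem cell line. The study profiled wild-type (WT) H9 in basal medium (labelled primed), 5iLAF (labelled naive) and 2iLAF (labelled primed-naive), and H9 of genotype B3GALT5-/- in basal medium (labelled primed) and 2iLAF (labelled naive). Each of these 5 groups held 1 library, so no difference below has a replicate check, no test was possible, and each value describes the library it comes from. The sources used here do not state whether the knockout is 1 clone, how long cells spent in each medium or whether feeder cells were present.

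Primed stem cells resemble the epiblast after implantation and are kept in that state by FGF and activin signals, whereas naive cells resemble the epiblast before implantation. As such media are usually composed, the 2i component of 2iLAF blocks the kinases MEK and GSK3, and LIF, activin A and FGF2 complete the medium. Blocking MEK lowers the targets of ERK, blocking GSK3 stabilises beta-catenin and so raises WNT targets, LIF signals through STAT3, and activin acts through the same SMAD factors as NODAL. B3GALT5 is the galactosyltransferase that extends globo-series glycolipids on the surface of pluripotent cells.

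The 5 libraries held between 13729 and 14156 genes at 1 TPM or more, and between 6.37% and 8.20% of their TPM lay in the 10 most abundant genes. Read depth is unknown, since the table holds no counts. The B3GALT5-KO 2iLAF library stood apart by blood cell transcripts, since the 3 lists of globin and red cell, granulocyte, and other leukocyte and platelet genes summed to 2357 TPM, or 0.236% of the library, against 192.6 TPM in B3GALT5-KO basal and between 81.0 and 457 TPM in the WT libraries. Counts are therefore also given without those lists. In RNA from a whole culture, fewer cells of a type and less RNA per cell cannot be told apart.

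Of the 15172 genes, 2503 (16.5%) were higher in 2iLAF and 1867 (12.3%) were lower, so 28.8% of genes passed the size rule. Without the blood cell lists the counts were 2449 and 1862, and with a pseudocount of 5 TPM in place of 1 they were 1351 and 878. The median log2 ratio was 0.02, and the 5th and 95th percentiles were -1.66 and 2.25. Large gains outnumbered large losses, since 411 genes had a log2 ratio of at least 3 and 131 of at most -3. Genes counted as higher took 4.45% of all TPM in basal and 17.9% in 2iLAF, while genes counted as lower went from 8.68% to 2.86%. At the edges of the rule, ANO3 (log2 ratio 1.00) was just inside and B4GALT7 (0.998) just outside the higher group, and PTPRG (-0.9997) was just outside the lower group.

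**Figure D1:**
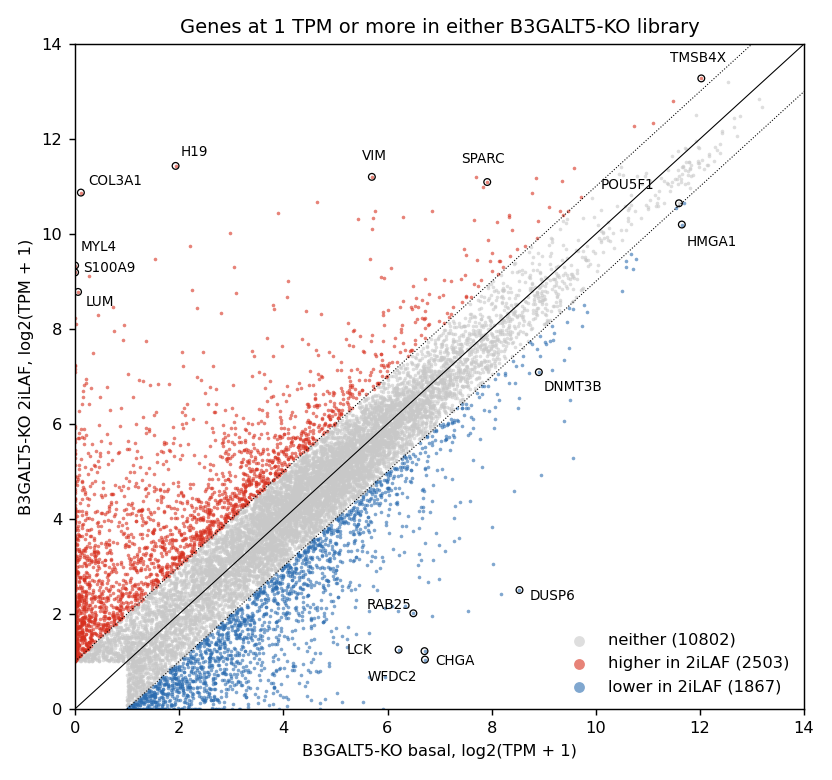
Level of each of the 15172 genes in the 2 B3GALT5-KO libraries, as log2(TPM + 1) in basal medium (x axis) and in 2iLAF (y axis). Points are genes, red where higher in 2iLAF (2503), blue where lower (1867) and grey otherwise; dotted lines mark the size rule, and circled points are named genes, with COL3A1, MYL4, S100A9 and LUM at the left edge, near 0 in basal, and DUSP6 (369.9 to 4.66 TPM) among the lowest ratios.

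Many of the higher genes were barely present in basal medium. Of 1443 genes under 1 TPM in B3GALT5-KO basal, which entered only through their 2iLAF level, 1105 were higher (76.6%). By the size rule such a gene could not be called lower, so list counts that hold such genes lean towards higher. This limit goes for every gene named below with a basal level under 1 TPM. Of the higher genes, 328 were listed at 0 in basal. Among 1586 genes at 100 TPM or more in basal the balance was turned, with 68 higher and 160 lower and a median log2 ratio of -0.25. Of the 100 most abundant genes of each library 84 were shared. TMSB4X, the actin-sequestering thymosin beta 4, was the most abundant transcript of the 2iLAF library at 9913 TPM, against 4171 in basal. EEF1A1, a translation elongation factor, led the basal library at 9377 TPM and stood at 6523 TPM in 2iLAF.

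B3GALT5 itself stood at 5.98 TPM in B3GALT5-KO basal and 1.17 TPM in B3GALT5-KO 2iLAF, a log2 ratio of -1.69. WT cells held 9.31 TPM in basal, 5.13 in 2iLAF and 2.08 in 5iLAF, so the transcript was present in both knockout libraries and lowest in the 2iLAF one. The sources used here do not name the edited part of the gene, so a transcript level is no check of the editing. The list of 8 enzymes of globo-series synthesis and capping, which counts B3GALT5, held 3 higher and 4 lower genes. A4GALT, which starts the series, went from 7.32 to 18.7 TPM, and B3GALNT1, which acts just before B3GALT5, from 2.19 to 8.28 TPM. FUT1, a fucosyltransferase that caps the products, went from 8.93 to 1.22 TPM. A4GALT and B3GALNT1 were thus higher in 2iLAF, while B3GALT5 and the fucosyltransferases FUT1 and FUT2 were lower.

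Among ceramide and early sphingolipid enzymes, 6 of 25 were higher and 3 lower, near the share over all genes. UGCG, the glucosylceramide synthase that feeds the globo-series, stood at 25.6 TPM in basal and 31.8 in 2iLAF and did not pass the size rule. UGT8, which makes galactosylceramide instead, went from 29.8 to 1.85 TPM. Enzymes of breakdown were among the higher genes, with SMPD1, acid sphingomyelinase, at 1.41 and 38.6 TPM, and HEXA, a hexosaminidase subunit, at 30.2 and 102 TPM, basal first. SPTSSB, a small subunit of serine palmitoyltransferase, was among the 15 lowest ratios, at 25.03 TPM in basal and listed at 0 in 2iLAF.

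Extracellular matrix genes were higher in 2iLAF. Collagens form the fibres and sheets of connective tissue and of basement membranes. Of 32 collagen chains 19 were higher and 3 lower, with a median log2 ratio of 1.44 beside 0.02 over all genes, and their summed level went from 769.5 to 8833 TPM. COL3A1, the chain of type III fibrils, had the highest ratio of all tested genes, at 0.08 TPM in basal and 1871 in 2iLAF (log2 ratio 10.76). COL1A1 and COL1A2, which together build type I fibrils, went from 24.1 to 1629.9 TPM and from 53.2 to 1426 TPM. The fibrillar chains that type I fibres carry along, COL5A1 and COL5A2, stood at 7.57 and 20.7 TPM in basal and 434 and 332 TPM in 2iLAF.

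Chains of other collagen types did not all follow. COL4A1 and COL4A2, the network chains of basement membrane, went from 49.5 and 59.7 TPM to 705 and 537 TPM, and all 3 type VI chains were higher. COL15A1 was listed at 0 in basal and stood at 38.01 TPM in 2iLAF. The 3 lower chains were COL2A1 and COL9A1, known from cartilage, at 21.2 and 4.23 TPM and at 18.6 and 0.45 TPM, basal first, and COL14A1, at 11.3 and 5.01 TPM. COL9A3, another chain known from cartilage, stood at 55.2 and 56.3 TPM.

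Enzymes that finish and cross-link collagen went with the chains, in that 16 of 25 were higher and 0 lower. LOX, the lysyl oxidase that cross-links fibres, went from 0.59 to 77.3 TPM and its relative LOXL1 from 11.3 to 131 TPM. BMP1, the proteinase that trims procollagen ends, went from 2.47 to 114 TPM. Prolyl and lysyl hydroxylases, which modify the chains before they fold, were higher in 8 of 10 cases, among them P4HA2 (7.86 to 51.5 TPM) and PLOD2 (24.7 to 123 TPM). SERPINH1, the collagen chaperone, was already abundant in basal at 659 TPM and stood at 1232 TPM in 2iLAF, a log2 ratio of 0.90 that did not pass the size rule.

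Matrix proteoglycans and glycoproteins were higher in 30 of 42 cases and lower in 4, and their sum went from 1329 to 6931 TPM. LUM, lumican, a small leucine-rich proteoglycan that spaces collagen fibrils, went from 0.04 to 438 TPM, and DCN, decorin, of the same family, was listed at 0 in basal and at 48.3 TPM in 2iLAF. Of the 10 members of that family 8 were higher and 2 stayed under 1 TPM in both libraries. FN1, fibronectin, stood at 51.8 TPM in basal and 1292 in 2iLAF, SPARC, a collagen-binding matricellular protein, at 240.4 and 2183 TPM, and TNC, tenascin C, at 1.48 and 119 TPM. The 4 lower members were elastin (ELN, 4.17 to 0.96 TPM), THBS4 (17.1 to 0.87 TPM), SPARCL1 (2.33 to 0.24 TPM) and TNXB (1.33 to 0.11 TPM). Collagens and these matrix proteins together made up 0.210% of TPM in B3GALT5-KO basal and 1.58% in B3GALT5-KO 2iLAF, against 0.181%, 0.244% and 0.802% in WT basal, 2iLAF and 5iLAF.

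Proteases that remodel matrix, their inhibitors and the receptors that bind matrix also differed. MMP2, a gelatinase, went from 39.4 to 246 TPM and MMP14, the membrane-bound protease that activates it, from 58.9 to 313 TPM. The metalloproteinase inhibitors TIMP1, TIMP2 and TIMP3 were higher, at 294, 158 and 31.6 TPM in 2iLAF against 94.4, 33.7 and 5.05 in basal. Proteases and inhibitors were thus higher side by side, 17 of 28 being higher. ITGA11, an alpha chain of a collagen receptor, went from 0.15 to 115 TPM and ITGA5, the fibronectin receptor chain, from 33.7 to 139.9 TPM. Laminin chains were higher in 6 of 10 tested cases and lower in none, whereas ITGA7 and ITGA2 were lower, the first from 31.1 to 6.62 TPM.

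Markers of fibroblasts, the connective tissue cells that secrete this matrix, were read next. Of 20 tested markers 17 were higher and 2 lower. Several of them are the matrix genes above, so the list is no separate check of cell type. Their summed level was 1133 TPM in B3GALT5-KO basal and 6469 TPM in B3GALT5-KO 2iLAF. PDGFRA, a growth factor receptor of mesenchyme, stood at 17.1 TPM and PRRX1, a mesenchymal transcription factor, at 17.1 TPM in 2iLAF, against 0.33 TPM and a listed 0 in basal. PDGFRA and PRRX1 thus entered only through their 2iLAF level. THY1, which marks fibroblasts and primed stem cells alike, went the other way, from 754 to 37.6 TPM. Of 26 endothelial markers 13 stayed under 1 TPM in both libraries, and of the 13 tested 3 were higher and 5 lower, the list summing to 176 TPM in basal and 157 in 2iLAF. The higher ones were all transcription factors, 3 of 4 tested, while receptors made up 109 TPM of the 2iLAF sum. The surface and secreted markers PECAM1, CDH5, CD34 and VWF stood at 0.66, 0.26, 0.23 and 0.14 TPM in 2iLAF.

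Contractile genes were higher in 2iLAF as well. Actin and myosin isoforms of smooth muscle and heart, and the proteins that bind them, are targets of SRF, a factor that binds the CArG box. Among smooth muscle genes 17 of 25 were higher and 1 lower, and their sum went from 4354 to 15373 TPM. Of those sums MYL6, a nonmuscle myosin light chain, held 1710 and 4966 TPM. ACTA2, smooth muscle alpha actin, went from 0.20 to 555 TPM and ACTG2, the gamma isoform, from 7.33 to 632 TPM. TAGLN (transgelin), CNN1 (calponin) and TPM1 (a tropomyosin), which bind the thin filament, stood at 227, 25.4 and 323 TPM in basal and 2037, 317 and 1358 TPM in 2iLAF. MYH11, the smooth muscle myosin heavy chain, stayed under 1 TPM at 0.93 TPM, and MYLK, the kinase that activates smooth muscle myosin, was lower (7.59 to 3.13 TPM). MYOCD, the cardiac and smooth muscle coactivator of SRF, went from 0.35 to 5.46 TPM, while SRF stood at 70.8 and 101 TPM.

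Sarcomere genes form the contractile unit of heart and striated muscle. Of 24 tested members 15 were higher and 3 lower, and 13 more stayed under 1 TPM in both libraries. ACTC1, cardiac alpha actin, went from 6.83 to 1030.0 TPM, MYL7, the atrial light chain, from 3.71 to 448 TPM, and TNNT2, cardiac troponin T, from 13 to 172 TPM. MYL4, a light chain of embryonic and atrial muscle, was listed at 0 in basal and stood at 645 TPM in 2iLAF. The heavy chains MYH6 and MYH7 stood at 0.02 and 0.02 TPM in 2iLAF, MYL2 was listed at 0 in both libraries, and TTN, titin, stood at 0.12 TPM. NPPB, natriuretic peptide B, went from 0.35 to 311 TPM. TNNI3, adult cardiac troponin I, was lower, from 40.05 to 15.4 TPM.

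Promoters of the contractile genes are shown because several carry the CArG box close to the start site. The windows are the 250 bases upstream of RefSeq start sites (GRCh38.p14, a later build than the hg19 of the deposited values), written 5′ to 3′ on the gene's strand. Capitals mark the CArG box. ACTG2, ACTC1 and MYL7 are the members with the largest ratios whose window held it.
ACTG2 (chr2:73892758-73893007, + strand): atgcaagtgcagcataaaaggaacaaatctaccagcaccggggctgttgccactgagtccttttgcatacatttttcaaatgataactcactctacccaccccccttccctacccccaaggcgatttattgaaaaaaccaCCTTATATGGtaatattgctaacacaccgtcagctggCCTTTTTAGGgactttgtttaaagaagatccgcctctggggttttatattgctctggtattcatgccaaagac
ACTC1 (chr15:34795550-34795799, - strand): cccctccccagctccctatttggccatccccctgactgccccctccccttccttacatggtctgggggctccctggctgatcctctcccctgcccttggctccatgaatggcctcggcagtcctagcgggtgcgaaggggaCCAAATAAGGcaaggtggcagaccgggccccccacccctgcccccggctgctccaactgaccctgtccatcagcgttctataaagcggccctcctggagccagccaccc
MYL7 (chr7:44141333-44141582, - strand): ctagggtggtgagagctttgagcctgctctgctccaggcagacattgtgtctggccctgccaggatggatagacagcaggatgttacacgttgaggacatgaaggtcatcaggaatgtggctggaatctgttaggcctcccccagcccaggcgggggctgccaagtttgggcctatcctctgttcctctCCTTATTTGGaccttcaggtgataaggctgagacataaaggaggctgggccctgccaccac
Over the contractile lists, 13 of 72 windows held a CArG box (18.1%), beside 407 of 35091 windows of all genes (1.16%). Within those lists the share was 16.7% both for members higher in 2iLAF (7 of 42 windows) and for members that did not pass the size rule (3 of 18). Over all tested genes with a window, the share was 2.33% for genes higher in 2iLAF, 1.196% for lower genes and 0.879% for the rest. MYLK, which was lower, also held the box, and the windows of ACTA2, TAGLN and CNN1 held no match in these 250 bases. Windows of 1 gene can overlap, and a match is a description of letters.

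Epithelial genes were on the whole lower in 2iLAF. Primed stem cells grow as an epithelium held together by E-cadherin and tight junctions. Of 40 epithelial junction genes 18 were lower and 6 higher, with a median log2 ratio of -0.90. CDH1, E-cadherin, stood at 116 TPM in basal and 25.1 in 2iLAF, and EPCAM, an epithelial adhesion molecule, at 265 and 67.98 TPM. The tight junction genes CLDN7, CLDN4 and MARVELD3 went from 137, 49.2 and 20.2 TPM to 8.99, 2.01 and 0.39 TPM. RAB25 and MAL2, which serve apical membrane traffic, went from 89.3 and 115 TPM to 3.03 and 2.87 TPM.

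Desmosome genes stood against the other junction genes. DSP, desmoplakin, went from 28.8 to 67.4 TPM and DSC2, a desmosomal cadherin, from 14.9 to 41.1 TPM, and 4 of 8 desmosome genes were higher against 1 lower. The keratins KRT8, KRT18 and KRT19, filaments of simple epithelia, were higher too, at 2321, 1517 and 349 TPM in 2iLAF against 463, 548 and 95.4 TPM in basal.

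The factors that control the epithelial-mesenchymal switch differed in both directions. ZEB1, ZEB2, SNAI2 and TWIST1, which repress epithelial genes or drive mesenchymal ones, stood at 0.21, 0.04, 0.60 and 0.18 TPM in basal and 8.03, 27.6, 47.3 and 18.6 TPM in 2iLAF. SNAI1 was level, at 16.2 and 15.8 TPM. The epithelial splicing factor ESRP1 and the epithelial transcription factors GRHL2 and OVOL2 went the other way, from 117, 15.5 and 17.4 TPM to 7.74, 0.18 and 0.77 TPM. GRHL3 was the exception in that family, at 0.03 TPM in basal and 11.1 in 2iLAF. VIM, vimentin, the filament of mesenchymal cells, went from 50.96 to 2354 TPM, and CDH2, N-cadherin, from 23.8 to 187 TPM.

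Repressors of the ZEB and SNAI families bind the E-box CACCTG, and windows of 3 genes lower in 2iLAF are shown because they hold it several times in 1 window (CRB3 and CLDN7) or had the lowest ratio among members holding it (RAB25). The strand, build and window are as above, and capitals mark CACCTG or its reverse complement CAGGTG.
CRB3 (chr19:6464021-6464270, + strand): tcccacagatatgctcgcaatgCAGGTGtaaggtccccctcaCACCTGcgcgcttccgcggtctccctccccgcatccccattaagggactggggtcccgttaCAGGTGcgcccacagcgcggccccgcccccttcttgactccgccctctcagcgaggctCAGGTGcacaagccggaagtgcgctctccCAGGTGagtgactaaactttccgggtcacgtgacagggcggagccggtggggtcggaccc
CLDN7 (chr17:7262479-7262728, - strand): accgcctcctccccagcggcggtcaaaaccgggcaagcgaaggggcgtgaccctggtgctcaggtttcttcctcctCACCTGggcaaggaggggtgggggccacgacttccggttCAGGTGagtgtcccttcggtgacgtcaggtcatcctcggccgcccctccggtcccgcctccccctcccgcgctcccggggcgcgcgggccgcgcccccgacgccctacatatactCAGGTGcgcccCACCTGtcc
RAB25 (chr1:156060910-156061159, + strand): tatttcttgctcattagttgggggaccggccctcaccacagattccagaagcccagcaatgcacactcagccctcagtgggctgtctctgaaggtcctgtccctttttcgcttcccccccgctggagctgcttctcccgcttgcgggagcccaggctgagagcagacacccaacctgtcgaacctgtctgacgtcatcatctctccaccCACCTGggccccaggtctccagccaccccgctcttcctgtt
CRB3, an apical polarity protein, went from 16.6 to 4.42 TPM. Among epithelial junction genes, epithelial cadherins and repressors of the switch, 8 of 18 windows of lower genes held the E-box (44.4%), as did 3 of 9 windows of higher genes and 5 of 15 windows of the rest (33.3% each). Over all windows the share was 17.5% (6139 of 35091). Over all tested genes with a window, lower genes had it in 22.4% of windows, higher genes in 15.6% and the rest in 15.3%. Base composition differs between promoters, so windows were also split at 60% GC. In windows of 60% GC or more the shares were 24.9%, 16.5% and 16.2%, and below that 17.5%, 14.6% and 13.5%, in the same order. The AP-1 site TGACTCA, or TGAGTCA on the other strand, was most frequent in windows of higher genes, at 5.27%, against 2.72% for lower genes and 2.54% for the rest.

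**Figure D2:**
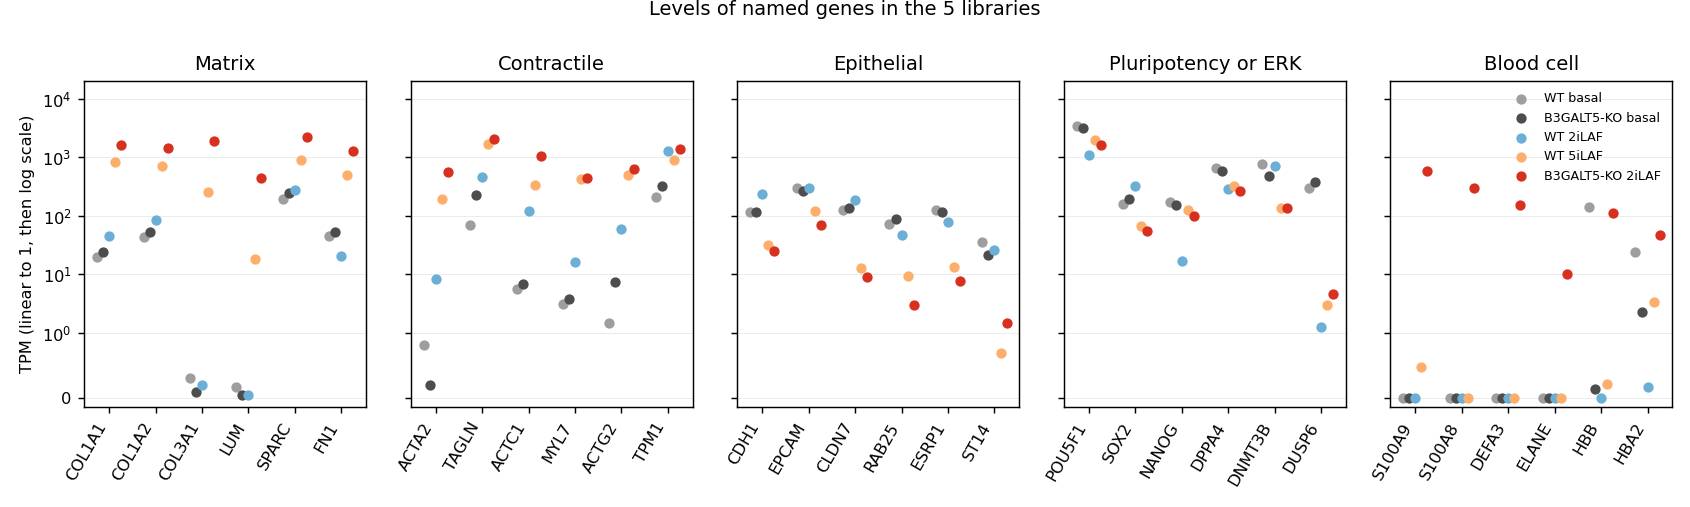
TPM of named matrix, contractile, epithelial, pluripotency or ERK, and blood cell genes (x axis) in each of the 5 libraries (colours), on an axis that is linear to 1 TPM and logarithmic above. Each point is 1 library; the B3GALT5-KO 2iLAF points lie above the B3GALT5-KO basal points for every matrix, contractile and blood cell gene shown and below them for every epithelial, pluripotency or ERK gene shown.

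Signalling genes are given by pathway, from ligand to target. In the NODAL pathway, NODAL itself, a ligand of the early embryo, went from 15.7 to 406 TPM and its relative GDF3 from 11.5 to 106 TPM. INHBA, the activin A chain, was listed at 0 in basal and stood at 17.7 TPM in 2iLAF. The co-receptor TDGF1, needed for NODAL to bind its receptors, was lower, from 589 to 239 TPM. All 6 inhibitors listed were higher, among them the feedback inhibitors LEFTY2 (13.8 to 1385 TPM) and LEFTY1 (37.1 to 202 TPM), and CER1, a secreted antagonist (3.63 to 852 TPM). FST, follistatin, which binds activin, went from 3.13 to 181 TPM.

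TGF-beta ligands and targets were higher as well. TGFB1 stood at 6.15 TPM in basal and 61.6 in 2iLAF and TGFB3 at 0.43 and 16.3 TPM, and 5 of 7 targets were higher. THBS1, thrombospondin, which activates latent TGF-beta, went from 9.50 to 185 TPM. CTGF, a target shared with YAP, stood at 147 and 126 TPM and did not pass the size rule. WT cells held 30.1 TPM of CTGF in basal, 117 in 2iLAF and 116 in 5iLAF, so B3GALT5-KO basal stood apart from WT basal. YAP targets were higher in 11 of 20 cases and lower in none, with CYR61 at 104 and 297 TPM and ANKRD1 at 0.53 and 54.5 TPM, while YAP1 itself stood at 68.5 and 73.5 TPM.

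Of the BMP pathway 15 of 21 tested genes were higher and 1 lower. BMP4, a mesoderm-inducing ligand, went from 3.46 to 84.3 TPM and BMP2 from 1.24 to 26 TPM. The secreted antagonists GREM1 and NOG were higher beside the ligands, at 9.43 and 7.36 TPM against 0.14 and 0.12 TPM. Of the ID genes, direct BMP targets, ID1 was higher (38.6 to 139 TPM) and ID3 was lower (199 to 36.9 TPM).

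WNT targets were higher in 16 of 21 cases, with a median log2 ratio of 2.55. In WT cells the same genes had medians of 0.06 in 2iLAF, with 4 higher and 3 lower, and 2.36 in 5iLAF, each against WT basal. SP5, a direct beta-catenin target, went from 0.15 to 122 TPM, LEF1, the DNA-binding partner of beta-catenin, from 0.29 to 34.1 TPM, and AXIN2, a feedback inhibitor, from 10.9 to 66.2 TPM. The caudal factors CDX1 and CDX4 stood at 58.8 and 40.99 TPM in 2iLAF against 0.08 and 0.18 TPM. Ligand genes were higher too, 8 of 9 tested, with WNT3 at 2.13 and 42.1 TPM and WNT8A, listed at 0 in basal, at 58.9 TPM. SP5, LEF1, CDX1, CDX4 and WNT8A were under 1 TPM in basal and entered only through their 2iLAF level. The antagonists SFRP1 and SFRP2 went from 345 and 492 TPM to 23.1 and 29.3 TPM, while the antagonist DKK1 went from 1.96 to 40.3 TPM.

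ERK targets divided by kind. The feedback phosphatase DUSP6 had the lowest ratio of all tested genes, at 369.9 TPM in basal and 4.66 in 2iLAF (log2 ratio -6.03). The ETS factors ETV1, ETV4 and ETV5, induced by FGF, went from 29.3, 156 and 48.7 TPM to 2.12, 18.4 and 3.17 TPM, and SPRY4, a receptor inhibitor, from 98.5 to 7.82 TPM. Immediate early genes, which many signals induce besides ERK, went the other way, with 5 of 11 higher and 0 lower. JUN, a subunit of AP-1, stood at 3.26 and 80.1 TPM, JUNB at 5.01 and 45.5 TPM and FOS at 3.18 and 21.6 TPM, basal first. Of the FGF ligands, FGF4 went from 0.06 to 33.9 TPM and FGF8 from 0.85 to 79.9 TPM, and FGF17, listed at 0 in basal, stood at 43.01 TPM.

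In the LIF pathway 13 of 23 genes were higher and 0 lower. IL6ST, the receptor chain gp130 shared by the LIF family, went from 2.68 to 60.1 TPM, and LIFR stood at 4.95 and 10.7 TPM. SOCS3, the feedback inhibitor induced by STAT3, went from 28.4 to 69.5 TPM, and STAT3 itself stood at 48.6 and 92.1 TPM, a log2 ratio of 0.91.

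Embryonic lineage factors followed, in the order of their appearance in the embryo. The primitive streak is the site where epiblast cells leave the epithelium to form mesoderm and endoderm. All 7 streak factors were higher, with T, brachyury, at 0.09 TPM in basal and 84.5 in 2iLAF, MIXL1 at 0.90 and 218 TPM and EOMES at 0.06 and 50.96 TPM. The streak factors named here, and HAND1, GATA4, TBX4 and APLNR of lateral plate mesoderm, were under 1 TPM in basal and entered only through their 2iLAF level, so their levels are a description. HAND1 was listed at 0 in basal and stood at 135 TPM in 2iLAF, GATA4 at 0.06 and 76.7 TPM and TBX4, listed at 0 in basal, at 22.3 TPM. APLNR, the apelin receptor of mesoderm progenitors, went from 0.27 to 179.9 TPM. NKX2-5, a heart factor, stood at 4.20 and 4.08 TPM, and TBX5, another, at 0.68 TPM in 2iLAF.

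Of the paraxial mesoderm factors, which pattern the somites, 5 of 9 were higher. MEOX1 was listed at 0 in basal and stood at 25.8 TPM, and MSGN1, also listed at 0, stood at 6.72 TPM. TCF15 was lower, from 9.99 to 1.26 TPM. Of the endoderm markers 15 of 20 tested were higher and 1 lower, with SOX17, listed at 0 in basal, at 14.6 TPM, FOXA2 at 0.40 and 4.91 TPM and HNF4A at 0.26 and 5.58 TPM. SOX17, FOXA2 and HNF4A, like MEOX1 and MSGN1, were under 1 TPM in basal and entered only through their 2iLAF level. The liver products AFP and TTR stood at 2.43 and 1.09 TPM in 2iLAF, and FOXA3 was lower (25.5 to 3.36 TPM).

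HOX genes specify position along the body axis and are silent in undifferentiated stem cells. None of the 39 HOX genes reached 1 TPM in B3GALT5-KO basal, where 25 had a listed level of 0 and the highest was HOXB7 at 0.17 TPM. In B3GALT5-KO 2iLAF 26 of them reached 1 TPM and 2 were listed at 0, and the sum went from 0.99 to 165 TPM. Among the higher levels were HOXB2 at 15.4, HOXC6 at 11.7, HOXA10 at 11.5 and HOXB1 at 11.4 TPM. All 10 genes of the HOXB cluster reached 1 TPM, against 8 of 11 in HOXA, 5 of 9 in HOXC and 3 of 9 in HOXD. Posterior members were among them, with HOXA11 at 8.29 TPM, HOXA13 at 5.79 TPM and HOXB13 at 4.28 TPM, while within HOXA the middle genes HOXA3, HOXA4 and HOXA6 stayed at 0.72, 0.44 and 0.14 TPM.

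Polycomb complexes keep HOX genes silent in stem cells. Of 16 polycomb genes 1 was higher, 4 were lower and 11 did not pass the size rule. Their median log2 ratio was -0.01, beside 0.02 over all genes, so the median was near level. The summed level of the list was not, at 1205 TPM in B3GALT5-KO basal and 490 TPM in B3GALT5-KO 2iLAF. Lower members outnumbered higher ones, whereas over all genes 16.5% were higher and 12.3% lower. PHC1, a PRC1 subunit, went from 671 to 65.7 TPM, CBX2 and CBX7, which bind the polycomb mark, from 79.6 and 11.3 to 26.6 and 2.22 TPM, and JARID2, a PRC2 cofactor, from 121 to 41.01 TPM. BMI1 went from 2.75 to 17.8 TPM, and the catalytic subunit EZH2 stood at 31.2 and 47.6 TPM. Of the DNA methylation genes, DNMT3B, a de novo methyltransferase, went from 479 to 135 TPM and its cofactor DNMT3L from 0.04 to 51.4 TPM, while DNMT1 and DNMT3A, at 56.8 and 57.04 TPM in 2iLAF, did not pass the size rule.

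The labels call the 2iLAF library naive, and the state markers were read against that label. Of 30 primed markers 22 were lower and 2 higher, with a median log2 ratio of -2.26. Among them ZIC2 and SALL2, transcription factors of the primed state, went from 102 and 223 to 23.8 and 32.96 TPM, and CD24, a surface protein, from 1453 to 442 TPM. Naive markers were higher in 12 and lower in 1 of the 17 that could be tested, but 10 more stayed under 1 TPM in both libraries. KLF17, ARGFX and DPPA5, which mark human naive cells, were listed at 0 in 2iLAF, as was ESRRB, and TFCP2L1 stood at 2.48 and 1.38 TPM. KLF5, SOX15 and TFAP2C, other factors of naive cells, went from 1.73, 8.73 and 6.61 TPM to 16.1, 43.5 and 48.5 TPM. The library labelled naive thus had lower primed markers, higher levels of part of the naive set and several naive markers listed at 0.

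Core pluripotency factors were still abundant. POU5F1 stood at 3098 TPM in basal and 1601 in 2iLAF (log2 ratio -0.95), NANOG at 154 and 99.01 TPM and SOX2 at 190.0 and 55.3 TPM, of which SOX2 passed the size rule. Of the 21 genes of that list 8 were lower and 3 higher, the latter including GDF3 and PRDM14 (19.3 to 55.2 TPM). ESRG, a noncoding transcript of pluripotent cells, was near level at 1601 and 1496 TPM. FOXD3-AS1, the antisense neighbour of FOXD3, went from 288 to 4.34 TPM and FOXD3 from 9.32 to 0.36 TPM; the strand setting of the counting is not stated, so reads of such a pair cannot be told apart with certainty.

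Neuronal and neuroendocrine vesicle genes were more often lower than higher, 16 against 6 of 33. Granins, the cargo proteins of secretory granules, were lower in 5 of 6 cases, with CHGA, chromogranin A, at 104 TPM in basal and 1.32 in 2iLAF and SCG5 at 36.98 and 2.31 TPM. VSNL1, a neuronal calcium sensor, went from 185 to 3.18 TPM and SYT1, the calcium sensor of vesicle release, from 22.2 to 2.73 TPM. Some neuronal genes were higher, among them STMN2, a microtubule regulator of axons (2.25 to 48.1 TPM), and GAP43, a growth cone protein (24.2 to 131 TPM). Of 13 tested neuroectoderm factors 7 were lower and 4 higher, and 14 more stayed under 1 TPM in both libraries, PAX6 and SOX1 among them. POU3F1 and OTX1, factors of anterior neural tissue, went from 17.3 and 11.8 TPM to 0.87 and 0.30 TPM.

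Imprinted genes and the growth factors of the IGF axis held some of the highest ratios. H19 and IGF2 are neighbours expressed from opposite parental copies. H19 went from 2.81 to 2762 TPM and IGF2 from 1.91 to 711 TPM. MEG3 and DLK1, a second such pair, stood at 0.01 and 0.17 TPM in basal and 274 and 12.6 TPM in 2iLAF. Over the list 14 of 31 tested genes were higher and 2 lower, and SNRPN, MEST and GRB10, at 364, 176 and 65.4 TPM in 2iLAF, did not pass the size rule. NLRP2, a maternal-effect gene, was at 0.21 TPM in B3GALT5-KO basal and 84.05 TPM in 2iLAF, but the 3 WT libraries held 73.1, 56.1 and 102 TPM, so B3GALT5-KO basal was the library that stood apart. IGFBP7 and IGFBP5, which bind IGF, went from 0.68 and 0.81 TPM to 249 and 61.1 TPM, whereas IGFBP4 and IGFBP6 went from 137 and 15.6 TPM to 28.5 and 2.79 TPM.

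Genes of growth and division are given next. Of 34 proliferation genes 32 had a ratio below 0, against 48.6% of all genes tested. Their median log2 ratio was -0.57, beside -0.06 for all genes at 10 to 100 TPM in basal and -0.25 for those at 100 TPM or more. By the size rule 5 of the 34 were lower (14.7%), near the 12.3% of all genes, and 0 higher. TOP2A, a topoisomerase of dividing cells, went from 215 to 93.3 TPM and MCM3, a replication helicase subunit, from 354 to 148 TPM, and MKI67 stood at 37.3 and 27.1 TPM. CDK inhibitors, which halt the cycle, were higher in 6 of 7 cases. CDKN1A (p21) went from 0.41 to 48.8 TPM, CDKN2A from 0.37 to 33.3 TPM and CDKN2B from 0.02 to 25.3 TPM. CDKN1A, CDKN2A and CDKN2B were thus under 1 TPM in basal and entered only through their 2iLAF level. Targets of p53 were higher in 16 of 28 cases and lower in 2, with BTG2, a growth inhibitor, at 1.23 and 47.1 TPM and PHLDA3 at 1.86 and 53.1 TPM, while PMAIP1, which promotes apoptosis, was lower (134 to 62.8 TPM).

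Cytosolic ribosomal proteins took 23.2% of TPM in B3GALT5-KO basal and 17.8% in B3GALT5-KO 2iLAF. Of 80 such genes 68 had a ratio below 0, again against 48.6% of all genes, but only 3 were lower by the size rule and 1 was higher. Their median log2 ratio was -0.39, beside -0.25 for all genes at 100 TPM or more in basal, so abundant genes in general also leaned below 0. Enzymes of serine, asparagine and related amino acid synthesis were lower in 7 of 10 cases and higher in none. PHGDH, the first enzyme of serine synthesis, went from 848 to 265 TPM and ASNS, asparagine synthetase, from 368 to 92.3 TPM. SLC7A3, an importer of cationic amino acids, went from 260.2 to 7.31 TPM. ATF4, the factor that induces these genes, stood at 883 and 736 TPM. Oxidative phosphorylation genes were near level, with 1 of 37 lower and 0 higher, and so were glycolytic enzymes, with ALDOC (100.2 to 23.3 TPM) the 1 lower gene of 17. Of 13 heat shock genes 4 were higher, among them the small chaperones HSPB1 (274 to 1215 TPM) and CRYAB (1.24 to 37.8 TPM), while the mitochondrial chaperone HSPD1 was the 1 lower gene (1628 to 766 TPM).

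Cytoskeletal and calcium-binding proteins accounted for some of the largest gains in TPM. TMSB10, another thymosin, went from 2866 to 7093 TPM and MYL6, a nonmuscle myosin light chain, from 1710.4 to 4966 TPM. ANXA2, an annexin of the cell membrane, stood at 207 and 2345 TPM and its partner S100A10 at 77.5 and 1309.6 TPM. LGALS1, galectin 1, went from 42.1 to 1270.5 TPM. TMSB15A was lower (165 to 11.01 TPM). Leukocytes express several of these genes too, and the part of the leukocyte transcripts described next in their levels was not tested.

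Granulocyte genes were present in B3GALT5-KO 2iLAF and near absent elsewhere. All 31 genes of that list reached 1 TPM in B3GALT5-KO 2iLAF, whereas 19 were listed at 0 in B3GALT5-KO basal and between 17 and 20 in the WT libraries. Of the 31 genes 27 were under 1 TPM in B3GALT5-KO basal and entered only through their 2iLAF level, so these levels are a description. The list summed to 1802 TPM in B3GALT5-KO 2iLAF, 15.1 in B3GALT5-KO basal, 20.1 in WT basal, 10.6 in WT 2iLAF and 40.9 in WT 5iLAF. The calprotectin subunits S100A9 and S100A8 reached 583 and 299 TPM from a listed 0 in basal. The alpha defensin genes DEFA1, DEFA1B and DEFA3 are near-identical, so their levels of 141, 148 and 150.1 TPM are uncertain as single values. Proteases stored in granules, such as ELANE (10.2 TPM) and CTSG (10.8 TPM), and the neutrophil receptor FCGR3B (50.4 TPM) were also listed at 0 in basal. The pan-leukocyte marker PTPRC went from 0.08 to 8.83 TPM. Of 22 tested markers of other leukocytes and platelets 15 were higher and 2 lower, and 14 more stayed under 1 TPM in both libraries. Macrophage markers were higher in 4 of 5 tested cases, summing to 21.4 TPM in basal and 37.5 in 2iLAF, although C1QA was listed at 0 in 2iLAF. Lymphocyte markers were higher in 4 of 7 and lower in 1, yet summed to 79.5 TPM in basal and 24.9 in 2iLAF. LCK alone stood at 73.2 TPM in basal and 1.37 in 2iLAF, so the lower sum does not describe the other lymphocyte markers. WT basal also held LCK, at 103 TPM. The platelet genes PF4 and PPBP stood at 0.26 and 0.17 TPM in 2iLAF.

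Globin transcripts showed another pattern over the libraries. HBB, adult beta globin, stood at 112 TPM in B3GALT5-KO 2iLAF and 0.13 in B3GALT5-KO basal, but at 140.2 TPM in WT basal, 0.21 in WT 5iLAF and a listed 0 in WT 2iLAF. All globin genes together summed to 222 TPM in B3GALT5-KO 2iLAF and 6.01 in B3GALT5-KO basal, and to 226 TPM in WT basal, 3.67 in WT 2iLAF and 12.3 in WT 5iLAF. The near-identical HBA1 and HBA2 are uncertain as single genes. Of the erythroid factors, GATA1 stood at 0.22 TPM and KLF1 at 0.74 TPM in B3GALT5-KO 2iLAF.

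Interferon response genes were higher in 19 of 26 cases and lower in 0, with IFITM1, an antiviral membrane protein, at 762 TPM in basal and 2667 in 2iLAF and IFIT3 at 0.58 and 17.9 TPM. Of the 26 genes 10 were under 1 TPM in basal and entered only through their 2iLAF level. In antigen presentation 6 of 22 tested genes were higher (27.3%) and 5 lower (22.7%), against 16.5% and 12.3% of all genes. The list's median log2 ratio was -0.19. Of 14 class I genes 5 were higher and 3 lower, and of 8 tested class II genes 1 was higher and 2 were lower. B2M, the light chain of class I molecules, went from 104 to 530.1 TPM and HLA-B from 21.8 to 138 TPM. HLA genes share sequence and are uncertain as single values. Leukocytes also express these genes, and the part of the leukocyte transcripts in them was not tested.

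Metallothioneins, which bind metals, are near-identical genes as well. 5 of 9 were higher, with MT1X at 88.7 and 478 TPM, and MT2A stood at 574 and 911 TPM. B3GALT5-KO basal already stood apart from WT basal here, the list summing to 1453 TPM against 121 TPM and MT2A standing at 14.4 TPM in WT basal. The list's median log2 ratio was 1.22 in B3GALT5-KO, 2.31 for WT 2iLAF and 4.74 for WT 5iLAF, each against basal of its genotype. FTH1, the ferritin heavy chain, went from 2195 to 5150.1 TPM and was among the 10 most abundant transcripts of the 2iLAF library.

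The change with medium in the knockout was then set beside both changes in WT cells, which share no library with it. In WT cells 2iLAF against basal had 745 of 14444 genes higher (5.16%) and 1107 lower (7.66%), and 5iLAF against basal had 1694 of 14874 higher (11.4%) and 1793 lower (12.1%). Log2 ratios of the knockout in 2iLAF correlated with those of WT in 5iLAF at a Pearson coefficient of 0.841 and a Spearman coefficient of 0.824 over 15542 genes. With WT in 2iLAF, the medium the knockout was also grown in, the coefficients were 0.267 and 0.257 over 15638 genes. These are across genes, which are not independent replicates, and the genes of each comparison share 2 libraries, so both are descriptions. Genes higher in the knockout and in WT 5iLAF numbered 1395, or 55.7% of the knockout's higher genes and 82.3% of those of WT 5iLAF. With WT 2iLAF the shared higher genes numbered 309, or 12.3% and 41.5%. For lower genes the overlaps were 1295 (69.4% and 72.2%) and 415 (22.2% and 37.5%).

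**Figure D3:**
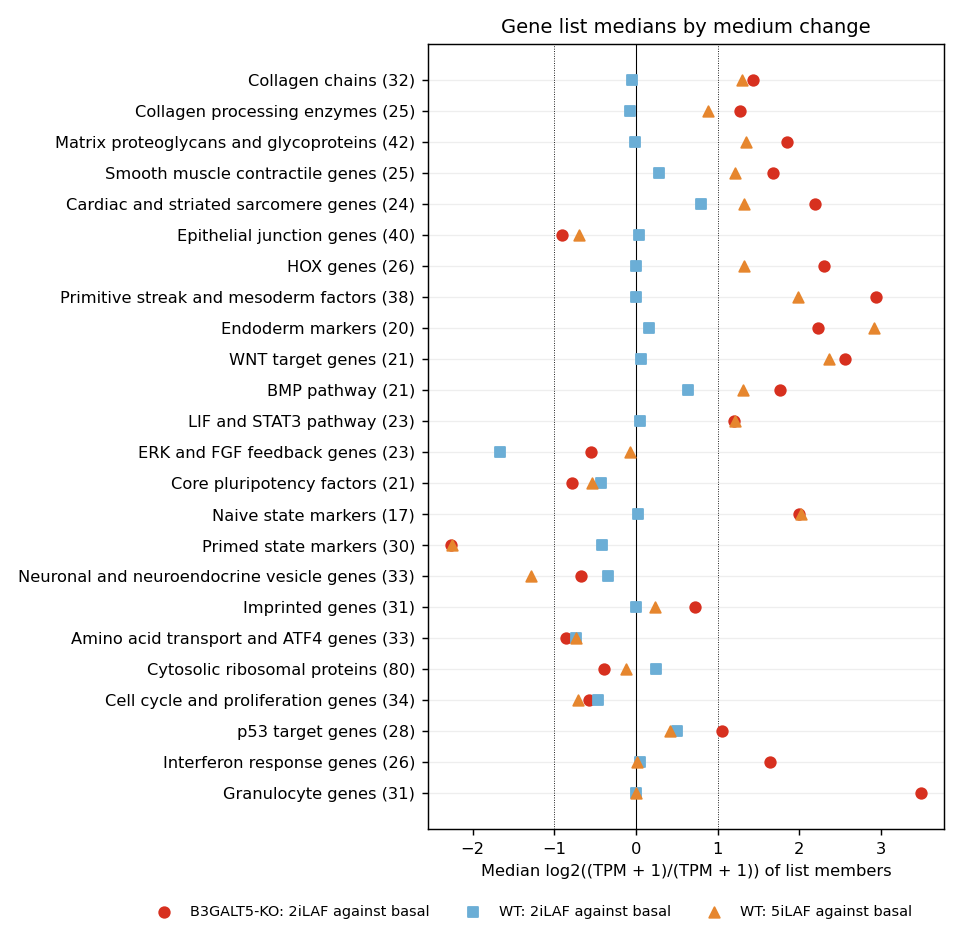
Median log2 ratio (x axis) of the members of each gene list (y axis, with the number of members tested in the B3GALT5-KO comparison) for 2iLAF against basal in B3GALT5-KO, 2iLAF against basal in WT, and 5iLAF against basal in WT, 1 library a group; members under 1 TPM in B3GALT5-KO basal, among them every HOX gene tested, 27 of 31 granulocyte genes and 10 of 26 interferon response genes, entered only through their 2iLAF level. Medians of B3GALT5-KO 2iLAF lie near those of WT 5iLAF for primed markers (-2.26 and -2.25) and naive markers (1.99 and 2.02).

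Single genes of the main groups are given in all libraries. VIM stood at 32.5 TPM in WT basal, 291 in WT 2iLAF and 2065 in WT 5iLAF, beside 2354 in B3GALT5-KO 2iLAF. COL3A1 stood at 0.30, 0.19 and 258 TPM in the same WT order, so the 1871 TPM of the knockout in 2iLAF was the highest of the 5 libraries, and LUM likewise stood at 0.16, 0.04 and 17.99 TPM against 438. Of the HOX genes 18 reached 1 TPM in WT 5iLAF and none in WT 2iLAF. LEFTY2, NODAL and CER1, at 0.32, 0.18 and 0.48 TPM in WT 2iLAF, were far under their levels in B3GALT5-KO 2iLAF, and at 1985, 586 and 1832 TPM in WT 5iLAF above them. DUSP6 was low in every inhibitor medium, at 1.24 TPM in WT 2iLAF and 2.98 in WT 5iLAF against 303 in WT basal. CLDN4 was higher in WT 2iLAF (111 TPM against 29.7 in WT basal) and lower in both other changes, at 1.94 TPM in WT 5iLAF. Whether the change with medium differs between the genotypes could not be tested with 1 library a group.

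The X chromosome was singled out after its values were seen. Genes were placed by symbol through the RefSeq table, and pseudoautosomal genes were counted with the X. The median log2 ratio of 561 X-linked genes was 0.42, against 0.01 for 14351 autosomal genes and between -0.18 (chromosome 19) and 0.14 (chromosome 20) for single autosomes. Of the X-linked genes 24.4% were higher, against 16.2% of autosomal genes, and 70.4% had a ratio above 0, against 50.7%. The difference was present at each level of expression, with X-linked medians of 0.26, 0.38 and 0.32 and autosomal medians of 0.01, -0.08 and -0.26 for genes at 1 to 10, 10 to 100 and 100 TPM or more in basal. X-linked genes took 3.34% of TPM in B3GALT5-KO basal and 4.85% in B3GALT5-KO 2iLAF, or 2.92% and 3.86% without TMSB4X. The WT shares without TMSB4X were 3.19% in basal, 3.35% in 2iLAF and 3.56% in 5iLAF, so B3GALT5-KO basal held the lowest share and B3GALT5-KO 2iLAF the highest. X-linked genes on the lists include BGN, biglycan (11.9 to 222 TPM), FLNA, filamin A (336 to 1076 TPM), and CD99, a pseudoautosomal surface protein (59.05 to 324 TPM).

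**Figure D4:**
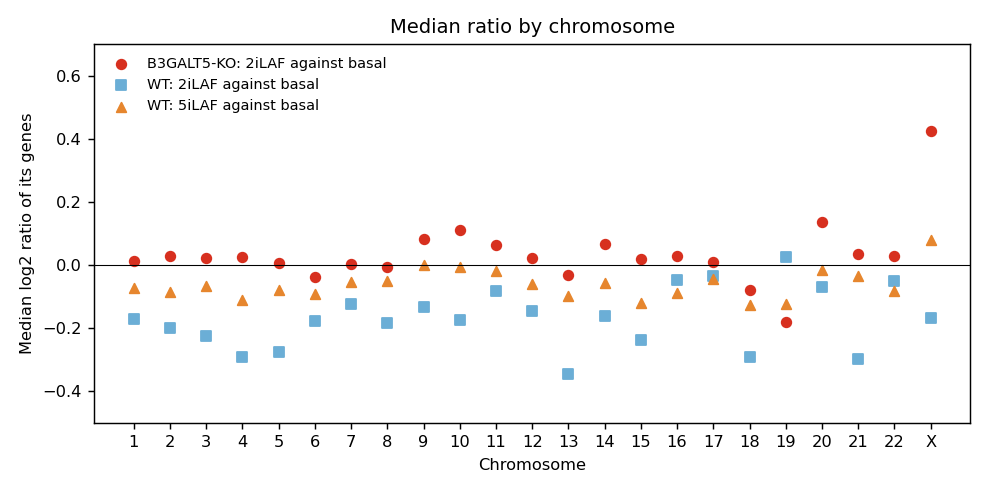
Median log2 ratio of the tested genes of each chromosome (x axis) for 2iLAF against basal in B3GALT5-KO, 2iLAF against basal in WT, and 5iLAF against basal in WT, 1 library a group. In the B3GALT5-KO comparison the X lies at 0.42 and chromosome 19 at -0.18, and the X lies at -0.17 and 0.08 in the WT comparisons.

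Chromosome 19 carries many zinc finger genes of the ZNF family, most of them repressors. Its 230 ZNF-named genes had a median log2 ratio of -0.25 and 69.1% had a ratio below 0, while its 890 other genes had a median of -0.17 and 56.9% below 0. By the size rule the order was the other way, 11.3% of the ZNF-named and 18.5% of the other chromosome 19 genes being lower, against 12.3% of all genes. ZNF-named genes elsewhere had a median of -0.09 over 244 genes. Few of the ZNF-named genes passed the size rule, 25 being higher and 50 lower of 474.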

How the data were processed

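Messenger RNA selected with oligo(dT) was sequenced in 5 H9 libraries, 1 a group, per the labels. The deposited table gives the authors' TPM and FPKM per gene symbol. The submitters' processing notes name Trimmomatic 0.39, Bowtie2 2.3.4.1, RSEM 1.2.28 and the hg19 build, and do not state the annotation or the strand setting. No counts were available, so the precision of a level is unknown, and near-identical genes may share reads.

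Log2 ratios were computed from TPM with a pseudocount of 1 TPM, which understates the change of low genes, over genes at 1 TPM or more in either B3GALT5-KO library, and a size rule of 2-fold. With 1 library a group there was no test. The deposited FPKM served as an alternative, beside other pseudocounts, filters, scalings and size rules. The calculation was tested on simulated data. The members and the 63 gene lists were chosen with earlier results of these data known. Genes named are B3GALT5, the 15 highest and 15 lowest ratios among genes reaching 10 TPM, the 15 largest gains and losses in TPM, the 10 most abundant genes of each B3GALT5-KO library, and list members with the largest ratios or levels of their role or listed at 0; some of these are not reported here. Chromosomes and promoters came from RefSeq (GRCh38.p14) by symbol, with 14916 of 15172 genes matched to a chromosome, and promoter windows found for 1707 of 2503 higher, 1243 of 1867 lower and 8121 of 10802 other genes. Analyses used Python 3.11.15, numpy 2.4.6, pandas 2.3.3 and matplotlib 3.10.9.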

Additional observations from a re-analysis of the deposited data

Results flagged for a closer look

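Under the change from basal medium to 2iLAF, 6 medians of gene lists or of their roles and 22 genes named here went opposite ways in B3GALT5-KO and WT cells, each by at least 1 on the log2 scale. With 1 library a group these differences were not tested. Over all genes tested, 112 were higher in B3GALT5-KO and lower in WT, and 78 the reverse. These were 4.48% of the genes higher in B3GALT5-KO and 4.18% of those lower. Over all genes of the WT comparison 7.66% were lower and 5.16% higher, so opposite changes were not more frequent than those shares.

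The median log2 ratio of neuroectoderm and neural factors was -1.09 in B3GALT5-KO and 1.00 in WT, and that of the transcription factors among them -1.13 and 1.00. SOX2, one of these, had log2 ratios of -1.76 and 1.00. The median of globin and red cell genes was 1.44 in B3GALT5-KO and -1.74 in WT, where the basal library was the one with high HBB (140.2 TPM), and that of the globins alone was 3.75 and -4.49. The log2 ratios of HBB, HBA1 and HBA2 were 6.65, 5.02 and 3.88 in B3GALT5-KO, whereas in WT 2iLAF HBB and HBA1 were listed at 0 and HBA2 stood at 0.17 TPM.

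The median of NODAL pathway ligands was 2.48 in B3GALT5-KO and -1.17 in WT, and that of NODAL inhibitors 4.83 and -1.19. NODAL had log2 ratios of 4.61 and -4.26, and GDF3 of 3.10 and -2.20. Those of LEFTY1 were 2.41 and -5.45, of LEFTY2 6.54 and -3.43, and of CER1 7.53 and -1.58. The streak factor MIXL1 stood at 6.85 and -1.38 on this scale, and FOXA2, an endoderm factor with a ratio of 2.08 in B3GALT5-KO, went from 1.67 TPM to a listed 0 in WT.

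Of matrix genes, FN1 had log2 ratios of 4.61 in B3GALT5-KO and -1.06 in WT, COL5A2 of 3.94 and -2.44, BGN of 4.11 and -2.30, and MMP2 of 2.61 and -2.26. PLOD2 stood at 2.27 and -1.12 and ITGA5 at 2.02 and -1.03. The epithelial genes CDH1 and CLDN4 were lower in B3GALT5-KO (-2.17 and -4.06) and higher in WT (1.01 and 1.86), as was SCG5, a secretory granule protein (-3.52 and 1.01). FOS stood at 2.44 and -1.27 and CRYAB at 4.11 and -1.06.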

How the results depend on the processing

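No paired analysis was possible because each group holds 1 library, and for the same reason no replicate could be left out. Against 2503 higher and 1867 lower genes, a pseudocount of 5 TPM gave 1351 and 878, a size rule of 1.5-fold gave 4027 and 3445, and one of 4-fold gave 933 and 496; the rule itself fixes the last 2 pairs. A pseudocount of 0.1 TPM gave 2950 and 2311, a filter of 5 TPM gave 1788 and 1345, and FPKM gave 1857 and 1587. Median-ratio scaling gave 2444 and 1907, trimmed-mean scaling 2503 and 1865, and leaving out blood cell genes 2449 and 1862. The median over all genes lay between -0.05 and 0.03 in these settings. The size of ratios depended on the pseudocount. With 5 TPM, 80 of 248 list medians and 444 of 1311 ratios of list or top-ranked genes moved by more than 1.5-fold. With 0.1 TPM, 61 and 349 did. The median of WNT targets, 2.55 with 1 TPM, became 4.07 with 0.1 TPM and 1.32 with 5 TPM. Among list medians, that of neuroectoderm and neural factors became 0.0001 without the filter, that of lymphocyte genes became -0.42 with the filter of 5 TPM, and that of platelet genes became 0.0201 without the filter, each with the sign turned; fewer or more members were tested there. Medians nearer 0 also turned: that of endothelial markers (0.58) became -1.03 with the filter of 5 TPM, that of globo-series enzymes (-0.06) became 0.91 with that filter, 0.20 with a pseudocount of 5 TPM and 0.02 with FPKM, that of clustered protocadherins (-0.14) became 0.14 with that filter and 0.06 with FPKM, and that of glycolysis and hypoxia genes (-0.01) became 0.02 with that filter. No gene named in the text that passed the size rule turned its sign under these pseudocounts, filters, scalings or FPKM. Named genes with smaller ratios were not checked for a turned sign. Read depth is unknown, so low TPM values have no counting error here, and differences near 1 TPM are the least certain.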

Other observations

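Secreted signals between cells were also unequal between the B3GALT5-KO libraries. Of 29 tested chemokines, cytokines and growth factors 13 were higher in 2iLAF and 6 lower. IL32, an inflammatory cytokine, stood at 0.91 TPM in basal and 269.5 in 2iLAF, CXCL14, a chemokine of epithelia and stroma, at 1.02 and 131 TPM, and HGF, a mesenchymal factor that acts on epithelia, at 0.06 and 55.2 TPM. Leukocytes make cytokines too, and the part of the leukocyte transcripts of the same library in these levels was not tested. PDGFA, PDGFB and PDGFD, ligands of the platelet-derived growth factor receptors, were lower, at 41.1, 21.9 and 5.41 TPM in basal and 8.15, 3.44 and 0.56 TPM in 2iLAF. The receptor PDGFRA, in contrast, was higher.

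Among genes of retinoic acid, a patterning signal made from vitamin A, CYP26A1, which breaks it down, went from 11.9 to 71.1 TPM. The binding proteins CRABP1 and CRABP2 changed places, with CRABP1 at 523 and 209.8 TPM and CRABP2 at 148 and 516 TPM, basal first. In the Notch pathway, which relays signals between neighbouring cells, JAG1, a ligand, and HES1, a target, were higher (15.9 to 55.4 TPM and 17.5 to 60.2 TPM), while NRARP, another target, was lower (26.5 to 3.02 TPM). Chaperones of the endoplasmic reticulum, which fold secreted proteins, included higher genes, with HSPA5 at 282 and 685 TPM and CALR at 634 and 1429 TPM. Of 28 cholesterol synthesis and uptake genes 1 was higher (3.57%) and 3 were lower (10.7%), against 16.5% and 12.3% of all genes. Their sum went from 4583 to 3376 TPM.

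Markers of extraembryonic and germ cells were in part higher and in part near 0 in the 2iLAF library. Of trophoblast markers 6 of 9 tested were higher and 0 lower, of amnion markers 7 of 8 were higher and 1 lower, and of germ cell markers 4 of 5 were higher and 1 lower. A further 11 trophoblast, 3 amnion and 7 germ cell markers stayed under 1 TPM in both libraries. Tested members under 1 TPM in basal, HAND1 and POSTN among them, entered only through their 2iLAF level. The trophoblast genes GCM1, ELF5, CGA and PSG1 were listed at 0, although TFAP2C and HAND1, which several tissues share, were high. Of the germ cell genes, DAZL was listed at 0 and NANOS3 and DDX4 stood at 0.14 and 0.09 TPM. Of the amnion genes, POSTN, periostin, which connective tissue also makes, stood at 0.22 and 38.9 TPM, whereas VTCN1 stood at 0.40 TPM and GABRP was lower (8.29 to 0.73 TPM). CD44, a hyaluronan receptor, went from 3.49 to 46.6 TPM.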
